A study of Mus musculus with 12 samples.

Results

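The 8 claudin genes Cldn1, Cldn2, Cldn3, Cldn4, Cldn6, Cldn7, Cldn12 and Cldn14 were taken by symbol from a table of 53599 genes counted in sorted mouse liver cells, and all 8 passed the filter on low counts that left 16210 genes for testing. The study follows hepatocytes as they take on a biliary identity. All animals were labelled wild type, and all had received AAV8-TBG-Cre, in which the hepatocyte promoter TBG drives Cre. From 1 week later they were fed the toxin DDC (3,5-diethoxycarbonyl-1,4-dihydrocollidine) at 0.1% for 8 weeks, so no group came from an uninjured liver. Livers were sorted into EGFP+ Cd24- Epcam- cells (early), EGFP+ Cd24+ Epcam- cells (intermediate), EGFP+ Cd24+ Epcam+ cells (full) and EGFP- Epcam+ cells, the resident biliary epithelial cells (BEC), with 3 libraries in each of the 4 groups. EGFP marks cells that carried hepatocyte Cre activity, and BEC are identified by its absence together with Epcam. Neither age, sex nor the number of mice is given in the sources used here.

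Claudins are small membrane proteins with a pair of extracellular loops that join neighbouring epithelial cells at the tight junction. Each member sets a different barrier or pore, so the mixture a cell makes decides which ions and how much water pass between cells. In the liver, tight junctions of hepatocytes seal the bile canaliculus, and those of cholangiocytes line the duct into which it drains.

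Total counts ran from 15112893 to 19731887 per library, and levels are given in CPM, the count relative to the library size after TMM scaling. A level of 3 counts, taken as the floor, corresponds to between 0.128 and 0.273 CPM. Hepatocyte markers (6 genes) summed to between 92530 and 96310 CPM in early and to between 1928 and 2548 CPM in BEC, and biliary markers (6 genes) to between 951 and 1912 CPM in early and between 13500 and 16830 CPM in BEC. Of 8 macrophage markers, 7 were above the floor in at least 1 library of early and 8 in at least 1 of each other group, though Cd163 had 4 counts or fewer in each library of early, intermediate and full, and their sum ran from 22.0 to 23.4 CPM in early, 29.4 to 33.6 in intermediate, 64.6 to 85.6 in full and 131 to 146 in BEC. Most of the BEC sum was Csf1r (3.94 CPM on average in early, 127 in BEC), and of 6 macrophage markers tested between BEC and early 1 was higher, 1 lower (Cd68, at 13.96 CPM in early and 3.46 in BEC) and 4 not called, with log2 fold changes from 0.42 to 1.67. Between BEC and full 2 were higher, Cd68 among them, and 0 lower. Of 8 stellate cell and fibroblast markers, 8 were above the floor in at least 1 library of every group, with sums from 110.4 to 322 CPM in early and from 48.6 to 84.2 CPM in full. The 8 endothelial markers likewise passed the floor in at least 1 library of every group, some of them in no more than that (Lyve1 had 4, 2 and 3 counts in full), and summed to between 14.7 and 24.0 CPM in early and between 2.36 and 6.85 CPM in BEC. Mitochondrial transcripts held 11.4% of the counts in early replicate 2 and 2.2% to 6% in the other libraries. The part of these differences in the claudin results was not tested. In bulk libraries such as these, fewer cells of a type and less RNA per cell cannot be told apart.

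Across the 4 sorted populations the claudins were exchanged in 3 ways. Cldn1 and Cldn14 fell from early to BEC, Cldn2, Cldn4, Cldn6 and Cldn7 rose, and Cldn3 and Cldn12 stayed within narrow limits under TMM scaling, though not with total counts only. Of the 8 genes, 6 differed among the 4 groups (F test of edgeR's quasi-likelihood fit, adjusted by Benjamini-Hochberg over all genes tested), against 75.6% of all genes tested. The share of claudins called was thus close to that of genes in general, and what follows concerns which of them moved, in which direction and at which step.

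**Figure D1:**
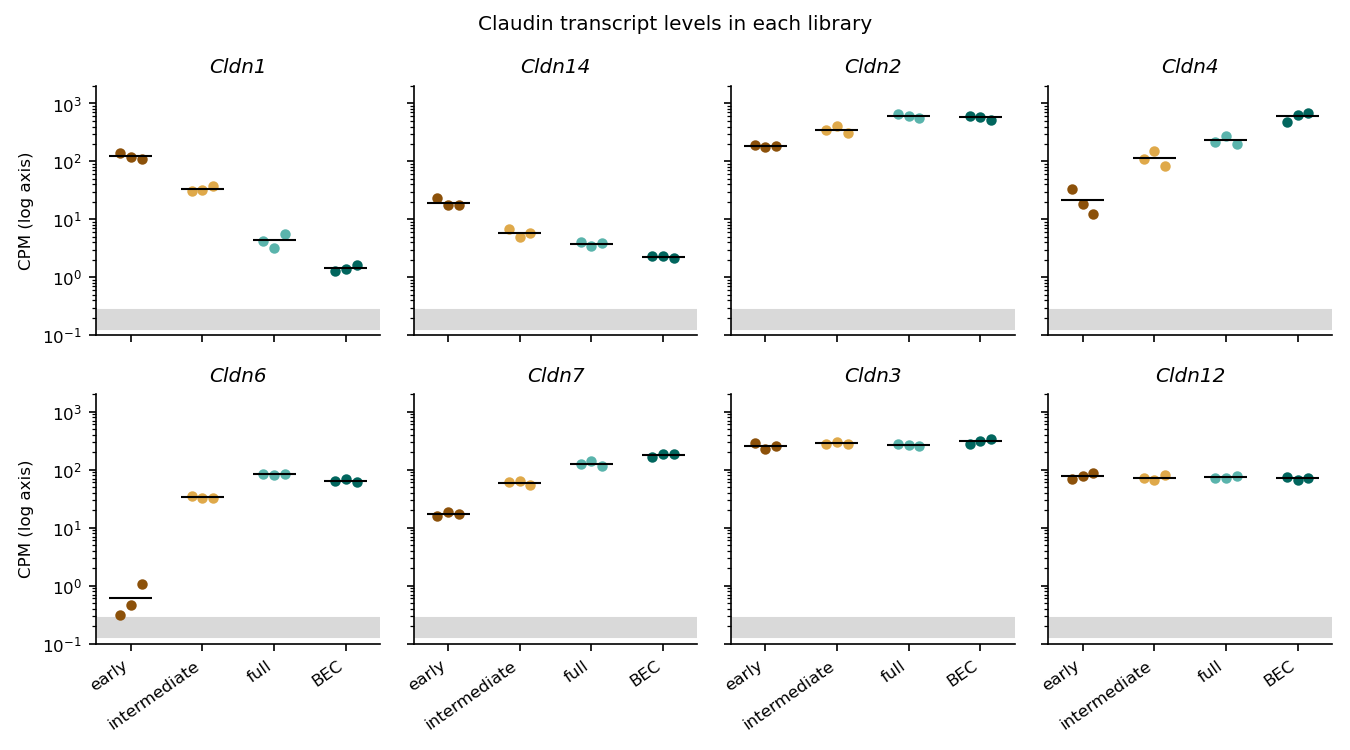
Level of each of the 8 claudins in CPM on a log axis, with 1 point per library, a line at the group mean of 3 libraries and a grey band over the floor of 3 counts (0.128 to 0.273 CPM). Cldn1 and Cldn14 step down from early to BEC, and Cldn4 and Cldn7 step up. Cldn6 comes near the floor in early only, with early replicate 3 further above it. Cldn3 and Cldn12, under TMM scaling, keep one height.

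Promoter sequences were taken from RefSeq (GRCm38.p6), which listed 13 start sites for the 8 genes. The 250 bases before the start are shown for 4 genes with 1 listed start each, namely Cldn1, which fell, and Cldn4, Cldn6 and Cldn2, which rose by different amounts and at different steps. Capitals mark matches, on either strand, to any of 8 motifs: TGAGTCA or TGAATCA (AP-1), TGACGTCA (cyclic AMP response element), GGAATG (TEAD), AACNGGTT (Grainyhead-like), CAGGTG (the E-box of Snail and Zeb factors), TATAAA (bound by the basal factor TBP), GTTAAT (HNF1) and GGGCGG (SP and KLF factors).
Cldn1: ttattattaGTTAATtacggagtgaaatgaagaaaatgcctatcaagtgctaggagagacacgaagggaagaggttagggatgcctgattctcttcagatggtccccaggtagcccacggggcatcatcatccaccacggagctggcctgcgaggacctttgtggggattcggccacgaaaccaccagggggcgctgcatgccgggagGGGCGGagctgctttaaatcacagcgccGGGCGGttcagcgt
Cldn4: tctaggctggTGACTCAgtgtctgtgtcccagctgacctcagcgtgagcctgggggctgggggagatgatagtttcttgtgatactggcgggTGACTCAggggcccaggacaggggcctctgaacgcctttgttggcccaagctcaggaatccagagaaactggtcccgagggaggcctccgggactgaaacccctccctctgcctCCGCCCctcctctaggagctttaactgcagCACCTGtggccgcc
Cldn6: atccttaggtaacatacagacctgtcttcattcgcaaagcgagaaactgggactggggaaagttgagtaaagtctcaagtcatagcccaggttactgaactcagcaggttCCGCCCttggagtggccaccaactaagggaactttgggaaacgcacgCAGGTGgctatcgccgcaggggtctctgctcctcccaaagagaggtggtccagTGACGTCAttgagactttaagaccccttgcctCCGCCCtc
Cldn2: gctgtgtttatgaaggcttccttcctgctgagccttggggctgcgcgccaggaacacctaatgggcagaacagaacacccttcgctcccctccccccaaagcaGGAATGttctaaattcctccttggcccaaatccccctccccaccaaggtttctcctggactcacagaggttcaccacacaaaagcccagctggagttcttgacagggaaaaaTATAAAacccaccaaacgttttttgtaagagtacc
The Cldn4 window (chr5:134946935-134947184, minus strand) held 2 matches to the AP-1 motif, which 6.75% of 32851 windows of the same length held at least once. The Cldn6 window (chr17:23679115-23679364, plus strand) held TGACGTCA, found in 1.55% of windows, and so did 1 of the 2 windows of Cldn7. The Cldn2 window (chrX:139800558-139800807, plus strand) held TATAAA, found in 12.4% of windows, and GGAATG, found in 12.6%. The Cldn1 window (chr16:26371840-26372089, minus strand) held GTTAAT, found in 6.43% of windows, and GGGCGG, found in 32.7%. CAGGTG, found in 17.2% of windows, occurred in 4 of the 13 claudin windows, among them those of Cldn4 and Cldn6. AACNGGTT, found in 1.79%, occurred in none of the 13. These are matches of letters and not measured binding.

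The claudins lost along the sequence were examined first. Cldn1 is a barrier-forming claudin of hepatocytes and an entry factor for hepatitis C virus in humans. It stood at 140.3, 119 and 109.5 CPM in the 3 early libraries, at 30.7, 32.0 and 38.1 CPM in intermediate, at 4.21, 3.17 and 5.64 CPM in full and at 1.3, 1.4 and 1.65 CPM in BEC. No library of a group overlapped the next, and the levels descended in the order early, intermediate, full, BEC. The fall was called at each step, with a log2 fold change of -1.87 (SE 0.16, edgeR adjusted p 3.39e-07) for intermediate against early, -2.95 (SE 0.18, edgeR adjusted p 7.49e-08) for full against intermediate and -1.58 (SE 0.22, edgeR adjusted p 0.000156) for BEC against full. From early to BEC the level was 84.4-fold lower (log2 fold change -6.40, SE 0.21, edgeR adjusted p 1.24e-11), the largest decrease among the 8 genes. The log2 fold change of Cldn1 by total counts only was -5.53.

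Cldn14 makes junctions tight to cations in the kidney and inner ear and is also made in liver. Its levels were 23.2, 17.9 and 17.5 CPM in early, 6.85, 4.93 and 5.89 CPM in intermediate, 4.08, 3.48 and 3.94 CPM in full and 2.31, 2.38 and 2.15 CPM in BEC. The libraries of neighbouring groups did not overlap. The decrease was largest at the first step (log2 fold change -1.73, SE 0.18, edgeR adjusted p 2.04e-06). At the second step it was smaller (-0.62, SE 0.18, edgeR adjusted p 0.0147), and that call was lost without intermediate replicate 1 (edgeR adjusted p 0.0641) and without full replicate 2 (edgeR adjusted p 0.061). BEC lay below full (-0.75, SE 0.19, edgeR adjusted p 0.0115).

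The claudins gained differed in where they started and where they stopped. Cldn6 is a claudin of embryonic epithelia that is silent in most adult tissues. It had 4, 5 and 13 counts in the early libraries (0.316, 0.455 and 1.05 CPM), where the floor lay at 0.237, 0.273 and 0.243 CPM. Elsewhere it stood at 34.6, 32.6 and 32.7 CPM in intermediate, 84.3, 80.3 and 84.8 CPM in full and 63.9, 67.5 and 61.7 CPM in BEC. Early libraries stood apart from all others, and full libraries were the highest. Cldn6 rose 53.9-fold at the first step (log2 fold change 5.75, SE 0.20, edgeR adjusted p 2.97e-10). At the second step it rose 2.49-fold (1.32, SE 0.12, edgeR adjusted p 1.82e-06). Without early replicate 3, which held 13 of the early counts, the first log2 fold change was 6.43. BEC was then lower than full by 1.29-fold (-0.37, SE 0.12, edgeR adjusted p 0.0401). That last call was weak, since it was lost in 8 of the 12 fits that each left out 1 library, including each of the 6 without a full or BEC library, with edgeR adjusted p between 0.00439 and 0.127 over the 12.

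Cldn4, a barrier claudin of ducts and glands and a receptor for the enterotoxin of Clostridium perfringens, rose at every step. It stood at 33.3, 18.6 and 12.5 CPM in early, at 108, 149 and 82.9 CPM in intermediate, at 219, 275 and 199 CPM in full and at 475, 639 and 679.9 CPM in BEC. The groups did not overlap, and early replicate 1 was the highest of its group. Log2 fold changes were 2.40 (SE 0.31, edgeR adjusted p 1.68e-05), 1.03 (SE 0.28, edgeR adjusted p 0.0101) and 1.37 (SE 0.28, edgeR adjusted p 0.00304) for the 3 steps in turn. The second call held in each of the 12 fits without 1 library, but with an edgeR adjusted p of up to 0.04998. BEC exceeded early 27.8-fold (log2 fold change 4.80), and by a log2 fold change of 5.67 with total counts only.

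Cldn7 is found along the lateral membrane as well as at the junction and binds Epcam, the surface protein on which full and BEC cells were sorted. Its levels were 16.1, 18.4 and 17.5 CPM in early, 59.9, 64.4 and 53.6 CPM in intermediate, 126, 138 and 117 CPM in full and 162, 182.5 and 187 CPM in BEC. No 2 groups overlapped, and the libraries of a group lay close together. The 3 steps had log2 fold changes of 1.78 (SE 0.11, edgeR adjusted p 1.67e-08), 1.10 (SE 0.10, edgeR adjusted p 1.45e-06) and 0.48 (SE 0.10, edgeR adjusted p 0.00251). The mean level of Epcam itself was 0.592 CPM for early, 18.8 for intermediate, 254 for full and 866 for BEC libraries, with SDs of 0.25, 7.24, 41.1 and 35.6 (n = 3 each).

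Cldn2 forms a pore for cations and water, and in the liver it is made by hepatocytes as well as by ducts. It was present in early at 192, 175 and 182 CPM, and reached 352, 406 and 308 CPM in intermediate, 654, 606 and 551 CPM in full and 618, 583 and 519.6 CPM in BEC. Early and intermediate lay apart from each other and from the rest, whereas full and BEC overlapped. It rose by a log2 fold change of 0.96 (SE 0.12, edgeR adjusted p 1.05e-05) and then 0.76 (SE 0.11, edgeR adjusted p 0.000133). BEC against full was not called (-0.07, 95% interval -0.32 to 0.17, edgeR adjusted p 0.737).

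The retained claudins were Cldn3 and Cldn12. Cldn3, the close relative of Cldn4 and like it an enterotoxin receptor, averaged 258 ± 30.3 CPM over early libraries, 282 ± 15.5 over intermediate, 264 ± 10.9 over full and 308 ± 33.1 over BEC (SD, n = 3 each). The libraries of all 4 groups overlapped, from 227 CPM in the lowest early library to 339.6 CPM (BEC replicate 3). None of the 3 steps was called, with log2 fold changes of 0.13 (95% interval -0.10 to 0.36), -0.10 (-0.33 to 0.14) and 0.22 (-0.01 to 0.45). BEC against early was called at the edge of the threshold (0.26, SE 0.11, edgeR adjusted p 0.0452) and that call was lost in 10 of the 12 fits without 1 library, with edgeR adjusted p between 0.0132 and 0.181. Cldn12 is an atypical claudin whose tail lacks the usual motif for binding scaffold proteins. In the order early, intermediate, full, BEC it stood at 78.4 ± 9.79, 73.0 ± 8.05, 73.1 ± 2.91 and 70.6 ± 3.71 CPM (SD, n = 3 each), with overlapping libraries, and was not called in any of the 6 pairwise comparisons. Both statements rest on the scaling of libraries. With total counts in place of the scaling factors, the median gene went from a log2 fold change of 0.06 to one of 0.72 for intermediate against early, and relative to early both genes were then called higher in intermediate (Cldn3 by 0.80, Cldn12 by 0.56, edgeR adjusted p 1.77e-05 and 0.000366). Against early they were likewise called higher in full (0.90 and 0.76) and in BEC (1.12 and 0.71). The median gene then stood at 1.005 in full and 1.004 in BEC against early. Total counts moved the other members in the same way against early, so that for intermediate against early Cldn1 was at -1.21 and Cldn14 at -1.07, Cldn2 at 1.62, Cldn4 at 3.07, Cldn6 at 6.41 and Cldn7 at 2.44, each with its direction and call as before.

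**Figure D2:**
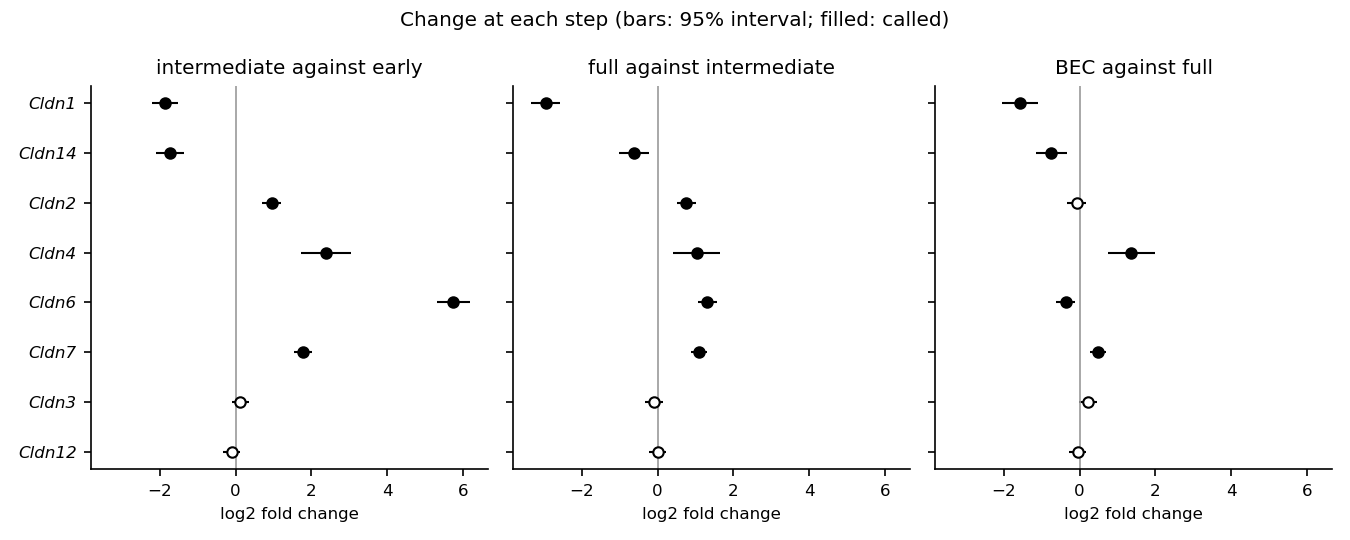
Log2 fold change of each claudin at the 3 steps, with the 95% interval of the fitted change as bars and filled points for genes called at an edgeR adjusted p under 0.05. Cldn6 has the largest first step (5.75), Cldn1 the largest second (-2.95), and the open points are Cldn3 and Cldn12 at each step and Cldn2 at the third.

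Counted by comparison, 4 of the 8 claudins were higher and 2 lower in intermediate than in early, where 54.4% of all genes tested were called (28.7% higher and 25.7% lower). With total counts only these became 6 and 2, and the share of all calls that were higher went from 52.8% to 85.6%. Full against intermediate likewise gave 4 higher and 2 lower, against 40.7% of genes called (20.8% higher and 19.8% lower), and the same members moved in the same direction as at the first step, except that Cldn14 was not called with total counts or without either of the 2 libraries named above. There the share of all calls that were higher went from 51.2% to 72.6% with total counts only. BEC against full gave 2 higher (Cldn4 and Cldn7) and 3 lower (Cldn1, Cldn6 and Cldn14), against 21.3% of genes called (10.7% higher and 10.6% lower). Over longer spans, full against early gave 4 higher and 2 lower (71.2% of genes called, 39.1% higher and 32.1% lower), BEC against early 5 higher and 2 lower (73.1%, with 40.0% higher and 33.0% lower) and BEC against intermediate 4 higher and 2 lower (52.4%, with 26.3% higher and 26.2% lower). The median log2 fold change of the 8 claudins was 0.54, 0.38 and -0.06 at the 3 steps, beside 0.06, 0.01 and 0.01 for all genes tested.

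The steps at which the change was made differed between members. On the log2 CPM scale, Cldn6 had covered 0.857 ± 0.007 of its distance from early to BEC in intermediate libraries, and 1.056 ± 0.007 in full (SD, n = 3 each, as a fraction of the distance). Cldn1 had covered 0.296 ± 0.026 in intermediate and 0.765 ± 0.064 in full. Cldn4 (0.504 ± 0.086 and 0.721 ± 0.049), Cldn7 (0.529 ± 0.040 and 0.857 ± 0.036), Cldn14 (0.565 ± 0.077 and 0.762 ± 0.039) and Cldn2 (0.576 ± 0.121 and 1.045 ± 0.075) lay between them in intermediate. Cldn6 was thus furthest toward its BEC level in Cd24+ Epcam- cells and Cldn1 least far. These fractions share the early and BEC libraries and were not tested against each other. They rest on TMM scaling, and each SD covers the intermediate or full libraries only, with the early and BEC means held fixed. The spread of those means is left out. For Cldn6 the log2 fold change of BEC against early ran from 6.375 to 7.376 without 1 library.

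To compare the genes with one another, counts were divided by exon length, and each claudin was expressed as a share of all claudin transcripts in its library. This share does not depend on scaling between libraries, and the pool held 33 claudins with a known length. In early cells Cldn3 made up 60.8% ± 1.74 of the pool, Cldn2 16.4% ± 0.865 and Cldn1 7.55% ± 0.603 (SD, n = 3 each), and this order held in all 3 libraries. In intermediate Cldn3 was at 47.3% ± 2.30, Cldn2 at 22.4% ± 1.17 and Cldn4 at 13.0% ± 2.60. In full the shares were 31.8% ± 1.24 for Cldn3, 27.5% ± 1.35 for Cldn2, 19.2% ± 2.40 for Cldn4 and 9.88% ± 0.395 for Cldn7. In BEC Cldn4 led with 35.8% ± 3.57, ahead of Cldn3 with 26.7% ± 0.863, Cldn2 with 19.0% ± 3.27 and Cldn7 with 9.94% ± 0.113 (SD, n = 3 each). Per kilobase, every BEC library had Cldn4 first, and every EGFP+ library had Cldn3 first.

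The share of Cldn3 stepped down while its CPM under TMM scaling stayed level, beside a larger pool at each step. Summed over claudins, early libraries held 336 ± 33.5 CPM per kilobase, intermediate 475 ± 44.1, full 660.4 ± 39.99 and BEC 915 ± 79.3 (SD, n = 3 each). By total counts the pool grew more, from 222 in early to 1101 in BEC, and Cldn3 rose with it, as given above. Cldn1 went from 7.55% to 0.0327% ± 0.00217 of the pool and Cldn14 from 2.72% ± 0.220 to 0.118% ± 0.0141. Cldn6 was at 0.107% ± 0.0705 in early, 4.10% ± 0.421 in intermediate, 7.34% ± 0.628 in full and 4.11% ± 0.412 in BEC. Cldn2 likewise had its highest share in full, and its share in BEC did not overlap that in full, while its CPM did. For each of the 8 members and 3 steps (24 comparisons) an exact 2-sided permutation test was run. It gave 0.1, the smallest p that 3 against 3 libraries allow, except for Cldn12 at the first step (exact p 0.2) and Cldn7 between BEC and full (exact p 0.8), and the adjusted value was 0.109 at the least. This test of 3 against 3 libraries cannot pass a threshold of 0.05. Ranks between genes depend on the lengths used: without division by length, Cldn3 held 36.47% of claudin counts in early, 29.2% in intermediate and 18.7% in full, and by CPM alone Cldn2 exceeded it in intermediate, full and BEC. In BEC replicate 1, Cldn2 (618 CPM) then also exceeded Cldn4 (475 CPM).

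**Figure D3:**
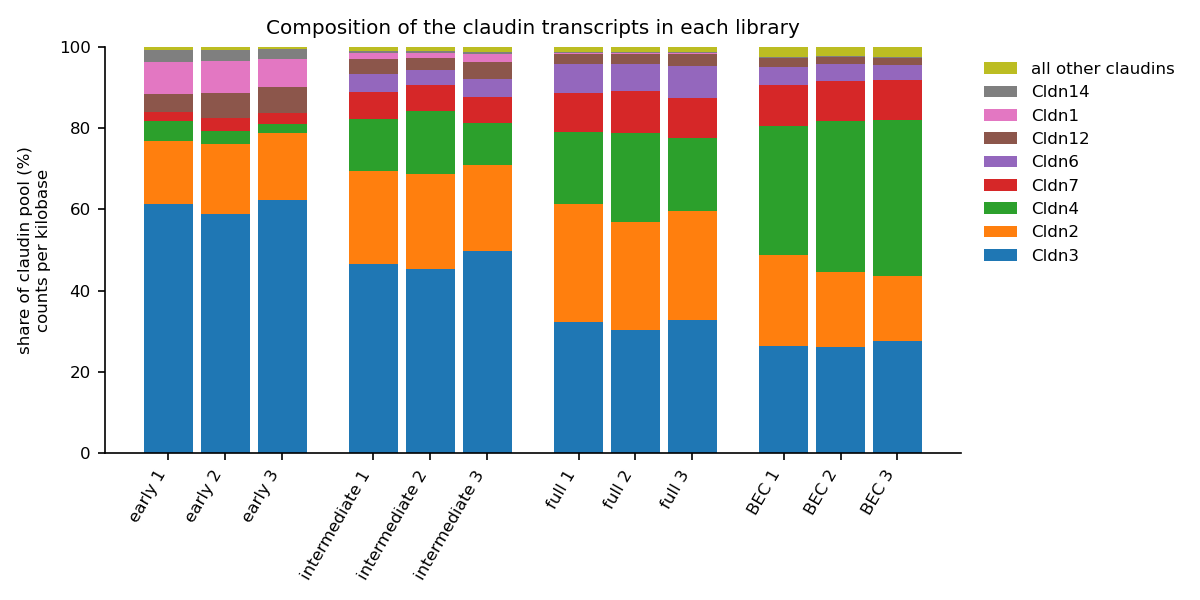
Share of each claudin in the summed claudin counts per kilobase of exon, in percent, with 1 stacked bar per library. The share of Cldn3 steps down from 60.8% in early to 26.7% in BEC on average, Cldn4 widens from 3.45% to 35.8%, and Cldn1 and Cldn14 are visible mainly in early.

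Cldn3 and Cldn4 are neighbours on their chromosome in the RefSeq annotation, so their ratio compares 2 adjacent genes within a library. Per kilobase, the ratio of Cldn4 to Cldn3 was 0.080, 0.057 and 0.033 in early, 0.276, 0.344 and 0.209 in intermediate, 0.553, 0.724 and 0.546 in full and 1.204, 1.43 and 1.39 in BEC. The groups did not overlap, and per kilobase Cldn4 exceeded Cldn3 in BEC libraries only. Without division by length it also did so in full replicate 2 (275.2 against 263.5 CPM). The protein-coding genes on the outer sides of the pair, Mettl27 and Abhd11, were lower in BEC than in early under TMM scaling, with log2 fold changes of -1.43 (edgeR adjusted p 4.95e-05) and -0.86 (edgeR adjusted p 1.22e-05). By total counts the log2 ratio of BEC to early means was -0.56 for Mettl27 and 0.007 for Abhd11, so the fall of Abhd11 rests on the scaling. An exon of Cldn3 overlaps Wbscr25 on the opposite strand, and the strandedness of counting is not given in the sources used here. Wbscr25 had between 2 and 29 counts per library and Cldn3 between 2501 and 7433. Cldn6 lies between Tnfrsf12a, a receptor of the TNF family, and Cldn9. Tnfrsf12a was at 98.6, 188, 149 and 92.0 CPM on average in early, intermediate, full and BEC, and was not called between BEC and early (-0.10, edgeR adjusted p 0.679), though its log2 ratio of means by total counts was 0.77. Cldn9 had at most 7 counts in any library. The gene after Cldn1, Cldn16, had 0 counts in every library, which allows at most 3 counts each.

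Outside the 8 genes, the table held 26 further claudins of a list of 29, of which 5 passed the filter. Cldn8, a barrier claudin of the kidney collecting duct, had 0 counts in each early and intermediate library, 3.28, 3.21 and 2.93 CPM in full and 36.3, 31.0 and 38.9 CPM in BEC. BEC was at least 129.7-fold higher than early, taking the floor of 3 counts per library, and 11.3-fold higher than full (log2 fold change 3.49, SE 0.17, edgeR adjusted p 6.88e-07). Full was at least 16.6-fold higher than intermediate. Cldn23 averaged 2.05 ± 0.964 CPM over early, 5.20 ± 0.979 over intermediate, 9.01 ± 1.23 over full and 11.3 ± 2.73 over BEC libraries (SD, n = 3 each). It rose at the first step (1.33, SE 0.31, edgeR adjusted p 0.00228) and at the second (0.79, SE 0.26, edgeR adjusted p 0.0277). Its second call rested on single libraries, with an edgeR adjusted p of 0.0934 when intermediate replicate 1 was left out, 0.0533 when intermediate replicate 3 was and 0.106 when full replicate 2 was.

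A further 3 claudins were highest in hepatocyte-derived cells that had gained Cd24. Cldn34c1 averaged 1.44 ± 0.195 CPM over early, 4.45 ± 1.10 over intermediate, 5.39 ± 0.403 over full and 2.33 ± 0.196 over BEC libraries (SD, n = 3 each). It rose at the first step (1.62, SE 0.26, edgeR adjusted p 0.000110) and was lower in BEC than in full (-1.21, SE 0.23, edgeR adjusted p 0.00144). Cldn18, a claudin of stomach and lung, was at or below the floor in early (0 to 2 counts) and had 12 to 13 counts in intermediate, 15 to 32 in full and 1 to 6 in BEC. It was at least 2.63-fold higher in intermediate than in early and lower in BEC than in full (-2.81, SE 0.60, edgeR adjusted p 0.00377). Cldn15, a cation pore of the intestine, had 2 to 3 counts in early, 13 to 24 in intermediate, 20 to 29 in full and 2 to 17 in BEC, and BEC against full was not called (-0.90, edgeR adjusted p 0.276). Cldn5, the claudin of endothelial cells, reached at most 14 counts in any library and did not pass the filter.

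**Figure D4:**
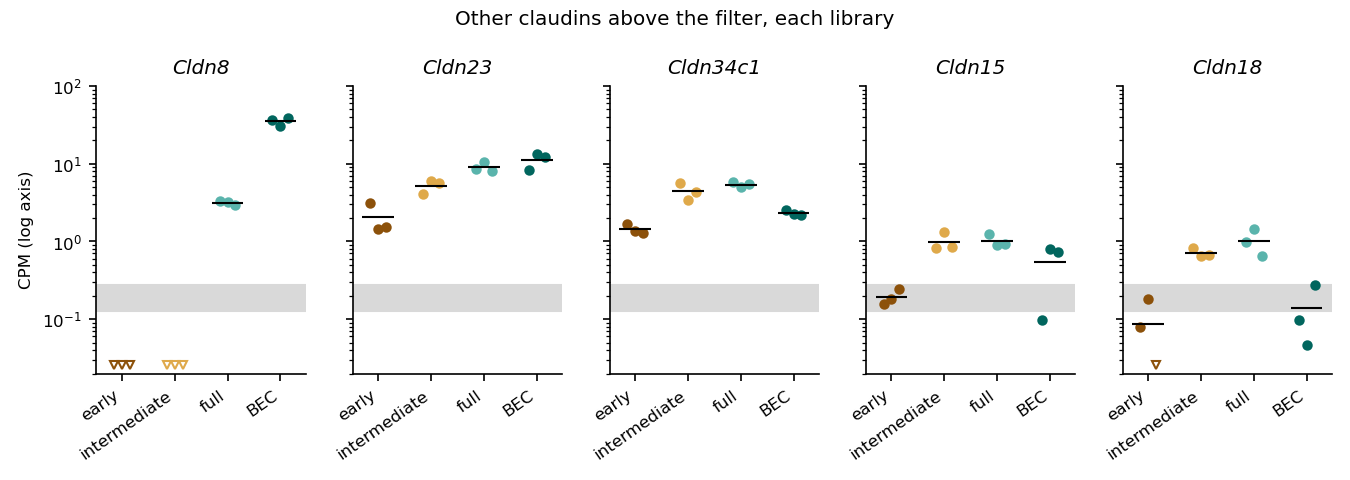
Level of the 5 further claudins that passed the filter, in CPM on a log axis, with 1 point per library, a line at the group mean, a grey band over the floor of 3 counts and open triangles at the lower edge for libraries with 0 counts. Cldn8 appears in full (2.93 to 3.28 CPM) and is higher in BEC (31.0 to 38.9 CPM), whereas Cldn34c1 and Cldn18 are highest in intermediate and full.

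Claudins work with other membrane proteins and with scaffold proteins of the cytoplasmic plaque. Among 12 membrane partners, 5 rose and 4 fell at the first step, 3 rose and 1 fell at the second, and 2 were higher and 4 lower in BEC than in full, beside 28.7% of all genes higher and 25.7% lower at the first step, 20.8% and 19.8% at the second, and 10.7% and 10.6% at the third. By total counts, 7 rose and 0 fell at the first step and 7 rose and 1 fell at the second. With that scaling 85.6% of all calls were higher at the first step and 72.6% at the second. The 4 that had fallen at the first (Ildr2, Lsr, Igsf5 and Crb3) were then at 0.20, 0.21, 0.38 and 0.31, and the median gene was at 0.72. Of those 4 falls, 1 was left without early replicate 2, intermediate replicate 1 or intermediate replicate 3, and 1 to 4 over the 12 fits that left out a library. Between BEC and full those fits gave 1 to 3 higher and 2 to 4 lower. Under TMM scaling the median log2 fold changes of the 12 were 0.13, 0.16 and 0.01 at the 3 steps. The angulins, which bring tricellulin to corners where 3 cells meet, changed in opposite directions. Lsr (angulin-1) fell at each step, the last call resting on single libraries, from 313 ± 27.7 CPM (early) through 229 ± 12.3 and 141 ± 10.8 to 112 ± 3.77 CPM (BEC; SD, n = 3 each), with a log2 fold change of -1.48 for BEC against early (SE 0.09, edgeR adjusted p 5.76e-09). BEC against full was lost without full replicate 1, BEC replicate 2 or BEC replicate 3 (edgeR adjusted p 0.104, 0.075 and 0.076). Ildr2 (angulin-3) was at 126 ± 26.6 CPM in early and 31.4 ± 3.93 CPM in BEC (log2 fold change -2.004, SE 0.19, edgeR adjusted p 3.63e-07). Ildr1 (angulin-2) had at most 1 count in early and 0 in intermediate, 7.79 ± 2.13 CPM in full and 60.1 ± 1.12 CPM in BEC, at least 220.4-fold above early and 7.71-fold above full. With total counts only, Lsr and Ildr2 were not called for intermediate against early (edgeR adjusted p 0.0502 and 0.346), and Ildr2 turned to 0.17 for full against early (edgeR adjusted p 0.387).

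Marveld3, a relative of occludin, rose at the first 2 steps, with means of 1.28 ± 0.566, 10.9 ± 3.17 and 39.1 ± 4.94 CPM for early, intermediate and full (SD, n = 3 each). BEC, at 53.3 ± 4.61 CPM, was not called against full (0.447, SE 0.185, edgeR adjusted p 0.113), though its libraries all lay above those of full. Occludin itself (Ocln) went from 64.4 ± 18.4 CPM in early to 97.9 ± 8.52 in intermediate (0.60, SE 0.15, edgeR adjusted p 0.00350) and was not called at the later steps, except by total counts in full against intermediate (0.39, edgeR adjusted p 0.041). Among 15 plaque proteins, 10 rose and 1 fell at the first step and 9 rose at the second. Between BEC and full, 5 were higher and 2 lower in BEC. Of all genes, 28.7% were higher and 25.7% lower at the first step, 20.8% and 19.8% at the second, and 10.7% and 10.6% at the third. The medians of the 15 were 0.69, 0.42 and 0.20, beside 0.06, 0.01 and 0.01 for all genes. By total counts all 15 rose at the first step and 13 at the second. With that scaling 85.6% of all calls were higher at the first step and 72.6% at the second. The median gene then stood at 0.72 and 0.21. Between BEC and full the fits without 1 library, under TMM scaling, gave 3 to 6 higher and 1 to 2 lower. Amotl1, which links junctions to Hippo signalling, rose at the first 2 steps, with means of 0.957 ± 0.819, 5.28 ± 2.48, 86.9 ± 15.7 and 151 ± 5.80 CPM from early to BEC. Its last step was called by edgeR (adjusted p 0.0445) and was lost with DESeq2 (adjusted p 0.347), with total counts only (edgeR adjusted p 0.0507) and in 8 of the 12 fits without 1 library (edgeR adjusted p up to 0.168). Patj, a scaffold of the Crumbs complex, went from 43.2 ± 6.58 CPM in early to 168.5 ± 2.10 CPM in BEC (1.96, SE 0.12, edgeR adjusted p 2.37e-09). Mpdz, a scaffold with many PDZ domains, was highest in full (38.3, 29.1, 46.5 and 20.8 CPM on average from early to BEC) and lower in BEC than in early (-0.88, SE 0.10, edgeR adjusted p 2.30e-06), as was the polarity protein Pard3 (-0.35, SE 0.09, edgeR adjusted p 0.00328). With total counts only, Mpdz was at -0.01 in that comparison (edgeR adjusted p 0.903) and turned to 0.27 for intermediate against early, and Pard3 turned to 0.52 (edgeR adjusted p 0.000115).

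**Figure D5:**
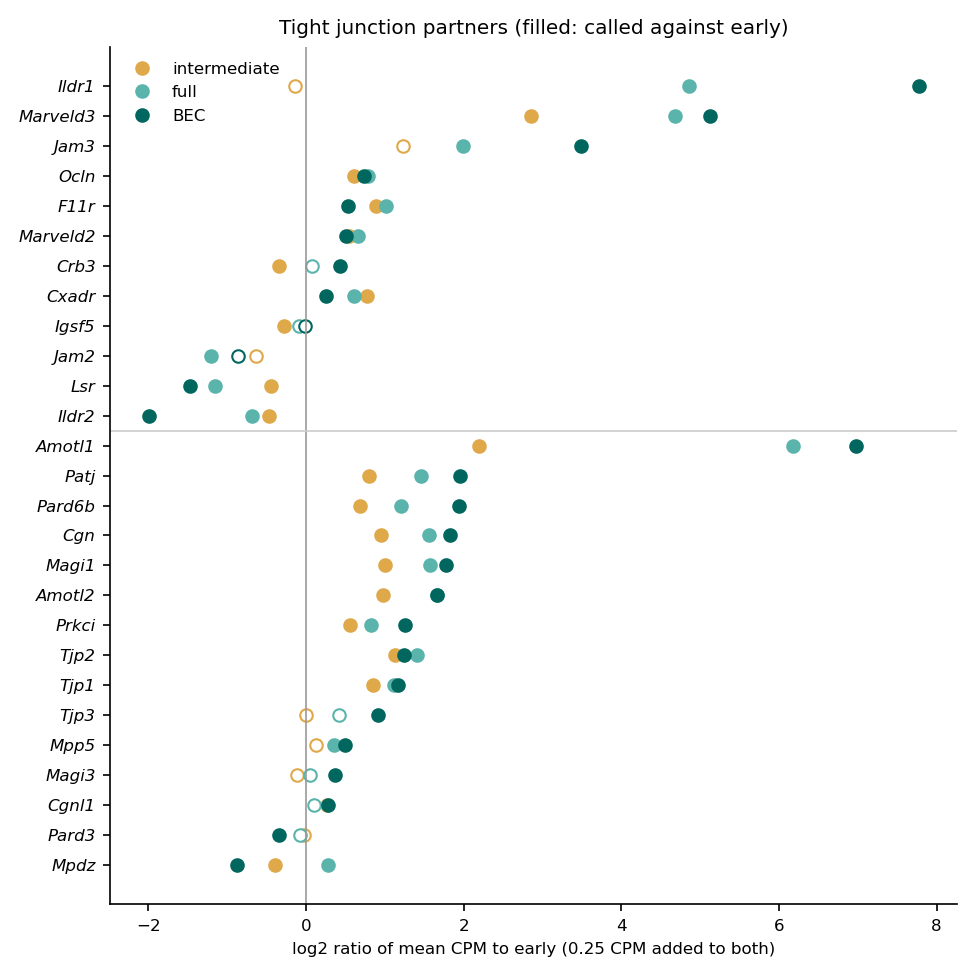
Log2 ratio of the mean CPM in intermediate, full and BEC to that in early, after adding 0.25 CPM to each, for 12 membrane partners (above the line) and 15 plaque proteins (below it), with filled points for genes called against early. Ildr1, Marveld3 and Amotl1 reach the highest ratios, and Lsr and Ildr2 lie left of 0 in each group, which with total counts only turns in intermediate for both and in full for Ildr2.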

How the data were processed

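Per the labels' protocols, RNA was isolated from sorted cells with a Nucleospin kit and libraries were prepared by a service provider. The authors deposited raw counts per gene symbol. The submitters' processing notes name STAR 2.7.10b, featureCounts 2.0.1, DESeq2 and GRCm39, without roles. The annotation, the strand setting and how reads with several matches were counted are not given in the sources used here. A second table, normalized by median of ratios, was not used.

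Groups came from sample titles. Nothing states that libraries of a group came from separate mice, so p-values measure the spread between these libraries only, which may be technical. Libraries of each group differed beyond counting error (chi-square divided by its degrees of freedom, 4.95 to 52.1). Every row was named and every column matched a sample.

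Computations ran in R 4.3.3, edgeR 4.0.16 and DESeq2 1.42.0, with Python 3.11.15, scipy 1.17.1 and matplotlib 3.10.9. Genes were filtered with filterByExpr, counts scaled by TMM, and 1 quasi-likelihood fit made over 12 libraries with a term per group. A gene was called where its p, adjusted by Benjamini-Hochberg over 16210 genes, was under 0.05. Log2 CPM used a prior count of 2. Exon lengths are unions of GENCODE M21 exons (GRCm38), and Mpp5 stands for Pals1. On simulated counts for intermediate against early (16210 genes), 200 were shifted by 2 on the log2 scale, up or down. Of these 200, 94.5% were recovered, and 2.58% of 194 calls were unchanged genes. Both rates hold for that small share of changed genes. Recovery with a share as large as the 54.4% called in this comparison was not tested, nor was the rate of false calls.

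Replicate numbers were shared by the 4 groups. Deviations from group means, across genes, correlated between equal numbers. The r was between 0.121 and 0.293 (intermediate and early), 0.137 and 0.322 (full and intermediate) and 0.170 and 0.257 (BEC and full). Libraries with equal numbers thus deviated alike to a small degree at the 3 steps. Unequal numbers were not compared, so pairing was not tested further. What the numbers mark is not stated. In the other 3 comparisons at least 1 pair was under 0.1.

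The 8 members and the lists were chosen with earlier results of these data known. The text names every member, every other claudin past the filter, and from each partner list the 2 genes that rose most and the 2 that fell most between early and BEC (called, at least 10 CPM in the higher group, no overlap). Ocln, Cldn5, Epcam and the chromosomal neighbours were added as context. For each member the 3 genes with the highest Pearson correlation are also given. Floors cover counting error only, since PCR copies are not independent molecules.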

Additional observations from a re-analysis of the deposited data

How the results depend on the processing

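Over 8 members and 6 comparisons (48 results), settings other than leaving out a library kept direction and call in 322 cases, lost 3 calls, gained 3 and reversed 8, of which 3 also became calls. Fits without 1 library kept 551, lost 20 calls and reversed 5. The log2 fold changes that reversed belonged to Cldn12 and Cldn3. With total counts only, Cldn12 was at 0.56 (intermediate against early), 0.76 (full against early), 0.71 (BEC against early) and 0.16 (BEC against intermediate), and Cldn3 at 0.105 (full against intermediate). For BEC against intermediate, Cldn12 was at 0.003 with DESeq2 and with median-of-ratios factors, and between -0.121 and 0.039 without 1 library. Between full and intermediate it ran from -0.071 to 0.083 without 1 library. Cldn3 in full against early was at -0.008 in the fit of 6 libraries and between -0.049 and 0.121 without 1 library. The 3 lost calls were Cldn14 in full against intermediate with total counts only (edgeR adjusted p 0.0823) and Cldn3 in BEC against early without a filter on low counts (0.0649) and with 6 libraries (0.174). The calls gained came with total counts only and were Cldn3 in intermediate and full against early and in BEC against intermediate, and, among the reversed, Cldn12 in intermediate, full and BEC against early. Apart from the shift of the median gene with total counts, the cause was not tested.

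The number of members called stayed within 1.5 times of its value in the text under all settings run. The replicate block gave the same numbers of members called, 6, 6 and 5 at the 3 steps, changed no member's call, and gave 9274, 7300 and 4096 genes in all. Without length scaling the share of Cldn3 was 36.47% in early, 29.2% in intermediate and 18.7% in full, by construction. Without 1 library the leading shares ran from 60.2% to 61.8%, 46.0% to 48.2% and 31.3% to 32.5% for Cldn3 in those groups and from 34.5% to 37.8% for Cldn4 in BEC. With total counts only, higher genes made up 81.8%, 80.3% and 66.5% of calls in full against early, BEC against early and BEC against intermediate, against 54.9%, 54.8% and 50.1%. Depth limits Cldn6, Cldn15 and Cldn18 in early, where counts were 4, 5 and 13 for Cldn6, 2 to 3 for Cldn15 and 0 to 2 for Cldn18.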

Other observations

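The genes whose log2 CPM over the 12 libraries was most like that of each member were listed by Pearson correlation, as a description, among 10912 genes that were no claudin and reached 10 CPM in their highest group. For Cldn1 these were Itih1, Pcsk6 and Apoh (r 0.998 each), and Itih1, which encodes a plasma protein, went from 983 CPM in early to 288, 61.6 and 28.4 CPM on average in intermediate, full and BEC. For Cldn14 they were Wbp1l, Mif (0.994 each) and Ctsz (0.993). For Cldn6 they were Selenon (0.998), Chrnb1 and Tmem229a (0.997 each), and Chrnb1, a subunit of the muscle acetylcholine receptor, was at 5.21, 76.1, 135 and 112.5 CPM in early, intermediate, full and BEC. For Cldn4 they were Prdm16 (0.995), Hr (0.993) and Ddit4l (0.990). For Cldn7 they were Lrch1, Col4a6 (0.997 each) and Slc43a2 (0.996). For Cldn2 they were Gm35533 (0.990), Kirrel and Tor3a (0.989 each), and Kirrel was at 0.951, 16.6, 124 and 121 CPM. For the retained members the closest genes were Gipc1 (0.883), Chtop (0.877) and Polr1c (0.851) for Cldn3. For Cldn12 they were Gas2l3 (0.903), Fchsd2 (0.870) and Fyco1 (0.860). Where groups lie far apart, r reflects the group means, so it cannot be compared between members that moved and members that did not. The points of each correlation share their libraries and groups.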
